A study of Rattus rattus with 8 samples.

Results

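The genes of 4 muscle ubiquitin ligases were followed in sorted neonatal rat cardiomyocyte cultures: Trim63, Trim55 and Trim54, which encode the muscle RING-finger proteins MuRF1, MuRF2 and MuRF3, and Fbxo32, which encodes atrogin-1. They were taken by symbol from a table of 30957 genes, and all 4 were found once each and had enough counts to be tested. They had been selected on earlier results of the 4n against 2n comparison of these libraries, so their own values in that comparison are given as a description, without a test. The libraries were 4 of tetraploid (4n) and 4 of diploid (2n) cells, from independent experiments with rats of the strain SD aged 1 to 3 days. In both groups differential adherence, a step in which fibroblasts stick to the dish first, had been used to enrich cardiomyocytes. All cultures then had 24 h with the DNA synthesis inhibitor AraC (0.2 mM) and an insulin, transferrin and selenium supplement. Serum starvation and 48 h at 1% oxygen followed. Every group was therefore hypoxic, and the groups differed in the DNA content read from a Hoechst dye (2 µg/mL), which does not separate a tetraploid nucleus from a pair of nuclei in 1 cell. How many rats or dishes went into a culture is not given in the labels.

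MuRF proteins are RING-type E3 ligases of the tripartite motif family that sit on the sarcomere, where they bind titin and one another, and on microtubules. MuRF1 and atrogin-1 are best known as the ligases induced in wasting skeletal muscle, where FoxO transcription factors switch on both genes. In the heart they mark contractile and signalling proteins for breakdown by the proteasome. Atrogin-1 is an F-box protein and works as the substrate-binding part of an SCF complex with Skp1, Cul1 and Rbx1, whereas a MuRF protein carries its own RING domain.

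Library totals lay between 14783521 and 21033772 counts. The libraries differed in content as well as in group: mitochondrial transcripts took 3.71% of the counts in 4n replicate 1 and 24.1% to 25.9% in 4n replicates 2 to 4, against 2.87% to 3.82% in the 2n libraries. The labelled cell type was checked against 12 cardiomyocyte markers. Their summed level was 4282 to 31050 CPM (counts per 1000000, scaled by library) in 4n and 507 to 994 CPM in 2n, while 8 fibroblast markers summed to 29530 to 51620 CPM in 4n and 44360 to 57770 CPM in 2n. The fibroblast sum was thus the larger in every library but 4n replicate 3. Most of it was Col1a1 and Col3a1, with means of 22930 and 13330 CPM in 4n and 28180 and 18730 CPM in 2n. The sums cover different genes and are not divided by gene length, so they do not give the shares of cell types. Of the cardiomyocyte markers, 12 of 12 were called higher in 4n, with log2 fold changes from 2.94 to 4.60 (edgeR quasi-likelihood test, adjusted p under 0.05), and 11 of 12 with the replicate number as a block. In such mixed samples, fewer cells of a type and less RNA per cell cannot be told apart. Endothelial markers, 5 in the table, summed to 53.7 to 75.0 CPM in 4n replicates 1 to 3 and 354.2 CPM in 4n replicate 4. In 2n they summed to 26.1 to 51.0 CPM. In edgeR 0 of 5 were called without the block and 4 of 5 were higher with it, where 4.27% of all genes were. Tek, 1 of the 5, had a log2 fold change of -0.21 without the block. MuRF1 and atrogin-1 are also skeletal muscle genes, so markers of that tissue were read too. The myogenic regulators Myod1, Myog, Myf5 and Myf6 stood at no more than 0.142 CPM in any library and Pax7 at 0. The 10 skeletal muscle markers in the table summed to 4.38 to 7.37 CPM in 4n and 3.17 to 21.1 CPM in 2n, most of it Myh1, a fast myosin heavy chain.

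The 3 MuRF transcripts were many times higher in 4n than in 2n libraries and did not overlap between the groups, whereas Fbxo32 was higher by about 2.11 times on average and overlapped. Of the 4 genes, 3 were called higher (edgeR, adjusted p under 0.05), where 2.67% of all 12983 genes tested were. Since this comparison was known when the genes were picked, nothing is read from that count. Of the 4, the 3 MuRF genes had every 4n library above every 2n library, as 7.68% of the genes tested did.

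Trim63 lies on chromosome 5 from 152533349 to 152547179 in the rat build Rnor_6.0, and MuRF1, its product, is located at the M-line through titin. It had 3.49, 9.74, 45.4 and 18.6 CPM in 4n replicates 1 to 4, against 0.854, 0.911, 1.01 and 2.04 CPM in 2n replicates 1 to 4. The lowest 4n library, replicate 1, was above the highest 2n library, replicate 4. The means were 19.3 ± 18.5 CPM in 4n and 1.20 ± 0.559 CPM in 2n (SD, 4 libraries a group), and the log2 fold change was 3.98 ± 0.75 (SE). Among 4n libraries the highest value was 13.0 times the lowest, the widest spread of the 4 genes. In 2n libraries the level rested on 14 to 43 counts. The 14 counts of 2n replicate 1 have an exact 95% Poisson interval of 7.65 to 23.5, which covers counting error only.

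Trim55 lies on chromosome 2 from 104416972 to 104459107, and its product MuRF2 is associated with microtubules and titin while sarcomeres assemble. Its levels were 23.1, 58.7, 219.6 and 67.5 CPM in 4n replicates 1 to 4, against 4.76, 2.47, 4.03 and 4.83 CPM in 2n replicates 1 to 4. Replicate 3 stood far above the other 4n libraries, and the groups did not overlap. The means were 92.2 ± 87.1 CPM in 4n and 4.02 ± 1.09 CPM in 2n (SD, 4 libraries a group), a log2 fold change of 4.52 ± 0.67 (SE). In 4n it was the best counted of the 4, with 429 to 3069 counts. In 2n it had 57 to 102 counts, where Fbxo32 had 44 to 180.

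Trim54 lies on chromosome 6 from 26603369 to 26624092, and its product MuRF3 is known as a microtubule-associated protein of the Z-line. It had 10.2, 18.1, 47.9 and 30.5 CPM in 4n replicates 1 to 4, against 1.28, 0.651, 1.06 and 1.56 CPM in 2n replicates 1 to 4. Again 4n replicate 3 was highest and 4n replicate 1 lowest of its group, and both were above every 2n library. The means were 26.7 ± 16.5 CPM in 4n and 1.14 ± 0.384 CPM in 2n (SD, 4 libraries a group), and the log2 fold change was 4.55 ± 0.52 (SE). The counts behind them were 189 to 670 in 4n and 15 to 33 in 2n.

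Fbxo32, on chromosome 7 from 98063735 to 98098268, stood apart from the MuRF genes. It had 6.72, 5.58, 17.0 and 15.3 CPM in 4n replicates 1 to 4, against 5.55, 4.77, 2.33 and 8.52 CPM in 2n replicates 1 to 4. The 4n libraries of replicates 1 and 2 were below 2n replicate 4, so the groups overlapped. The means were 11.2 ± 5.86 CPM in 4n and 5.29 ± 2.55 CPM in 2n (SD, 4 libraries a group), and the log2 fold change was 1.07 ± 0.46 (SE). Without 4n replicate 3 the log2 fold change was 0.79, and with the replicate block and without pair 3 it was 0.47, both still higher in 4n.

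**Figure D1:**
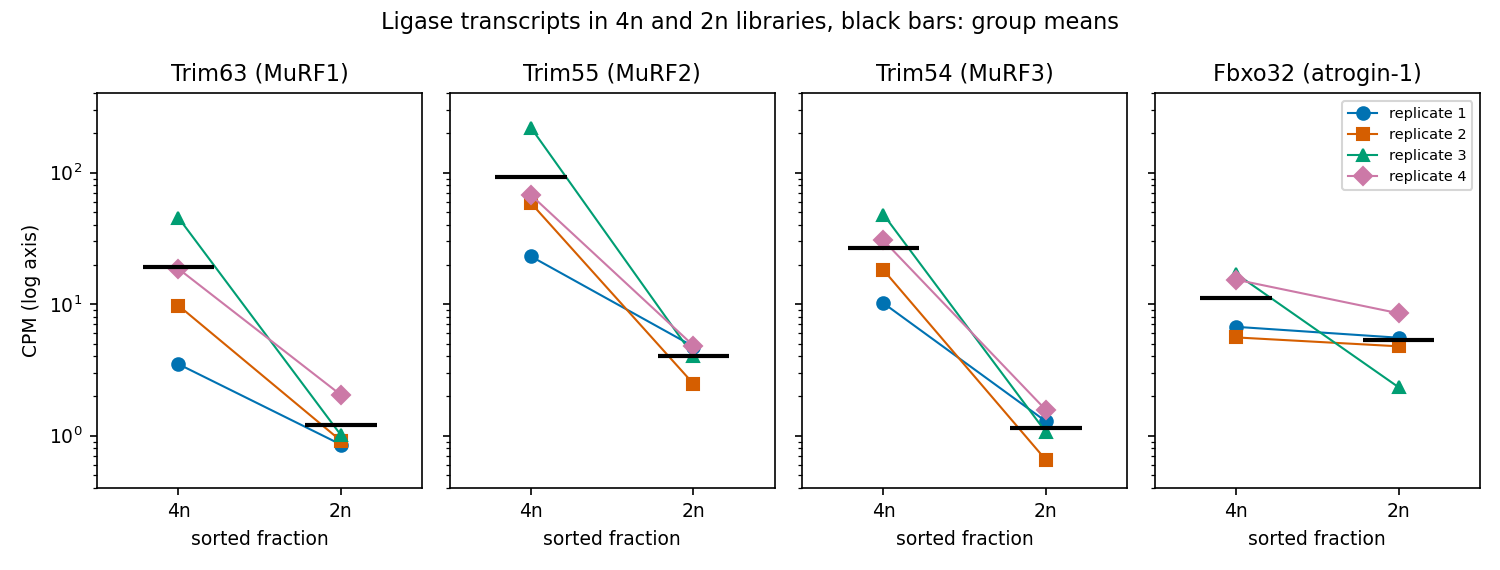
CPM (log axis) of each ligase gene in the 4n and 2n libraries, with libraries of the same replicate number joined and black bars at the group means. The MuRF genes separate the groups, with the lowest 4n values at 3.49, 23.1 and 10.2 CPM for Trim63, Trim55 and Trim54, and Fbxo32 overlaps.

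Libraries of 4n and 2n cells with the same replicate number were taken as pairs, since they varied together, and the size of the difference varied between pairs more than between MuRF genes. In pair 1 the 4n library exceeded its 2n partner by 4.09 times for Trim63, 4.85 times for Trim55 and 7.93 times for Trim54. In pair 3 the same ratios were 45.0, 54.5 and 45.2. Pairs 2 and 4 lay between, at 10.7, 23.7 and 27.9 times in pair 2 and 9.12, 14.0 and 19.5 times in pair 4. For Fbxo32 the ratio was 1.21, 1.17, 7.30 and 1.80 in pairs 1 to 4. The large ratio in pair 3 came with the highest 4n value of Fbxo32 and its lowest 2n value. All 4 genes were higher in 4n in 4 of 4 pairs, as were 20.2% of all genes tested.

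Differences within pairs were read beside those of the 12 cardiomyocyte markers. On the log2 CPM scale the marker median was 2.28, 4.50, 5.58 and 3.71 in pairs 1 to 4. Trim55 differed by 2.25, 4.51, 5.73 and 3.77, close to that median in every pair. Trim54 differed by 2.88, 4.58, 5.35 and 4.19, and Trim63 by 1.90, 3.26, 5.34 and 3.12. All 3 MuRF genes were inside the range of the markers in every pair. Fbxo32 differed by 0.27, 0.22, 2.81 and 0.84 and was below the lowest marker in every pair, the lowest markers being at 1.35, 2.26, 3.66 and 2.71. Ranked by their log2 fold change over all libraries, 1 of the 12 markers exceeded Trim54 and Trim55, 10 exceeded Trim63 and 12 exceeded Fbxo32.

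**Figure D2:**
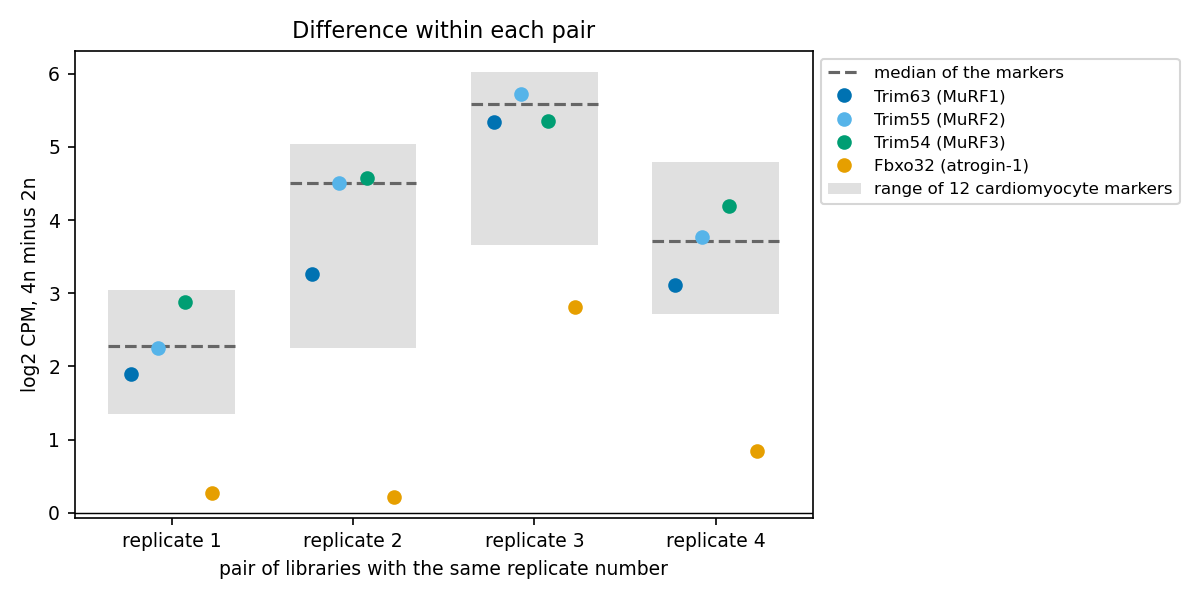
Difference in log2 CPM, 4n minus 2n, within each pair of libraries with the same replicate number, for the 4 ligase genes (points), the range of 12 cardiomyocyte markers (grey bars) and their median (dashes). In pairs 1 to 4 Trim55 lies near the median at 2.25, 4.51, 5.73 and 3.77, and Fbxo32 lies under the grey bars at 0.27, 0.22, 2.81 and 0.84.

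Setting each ligase transcript against the cardiomyocyte transcripts of its own library takes the library scaling out of the comparison. Levels are then given in FPKM (counts divided by gene length and library total) per 1000 FPKM of the 12 summed markers. Trim63 kept about the same ratio in both groups, at 0.868, 1.20, 1.47 and 1.56 in 4n replicates 1 to 4, against 0.883, 1.45, 1.15 and 2.12 in 2n replicates 1 to 4. The 4n values fell inside the 2n range except in replicate 1, which was just under it. Trim55 had 4.09, 5.16, 5.10 and 4.05 in 4n replicates 1 to 4, against 3.52, 2.81, 3.28 and 3.60 in 2n replicates 1 to 4. Its mean ratio was 1.39 times higher in 4n, and the groups did not overlap. Within pairs, by contrast, Trim55 was close to the marker median. The sum weights markers by level, and Tnnt2 had the lowest log2 fold change of the 12, at 2.94. On average Tnnt2 took 1799 of 13690 CPM of the marker sum in 4n and 234.7 of 806.4 CPM in 2n. Its part in the Trim55 ratio was not tested. Trim54 had 2.71 ± 0.567 in 4n and 1.59 ± 0.308 in 2n (SD, 4 libraries a group), and the groups overlapped, since 4n replicate 3 at 1.91 was below 2n replicate 4 at 2.00. Fbxo32 had the lower ratio in 4n, although its mean CPM was higher there. It had 0.995, 0.409, 0.330 and 0.768 in 4n replicates 1 to 4, against 3.42, 4.52, 1.59 and 5.30 in 2n replicates 1 to 4. Per unit of cardiomyocyte transcript, every 4n library was thus below every 2n library for Fbxo32, with 0.169 times the mean ratio. The marker sum itself was 12.8 times higher in 4n in FPKM, so a gene with equal levels in both groups would also have a lower ratio in 4n. How many of all genes separate the groups in such a ratio was not counted. The part of the marker sum in these ratios was not tested.

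**Figure D3:**
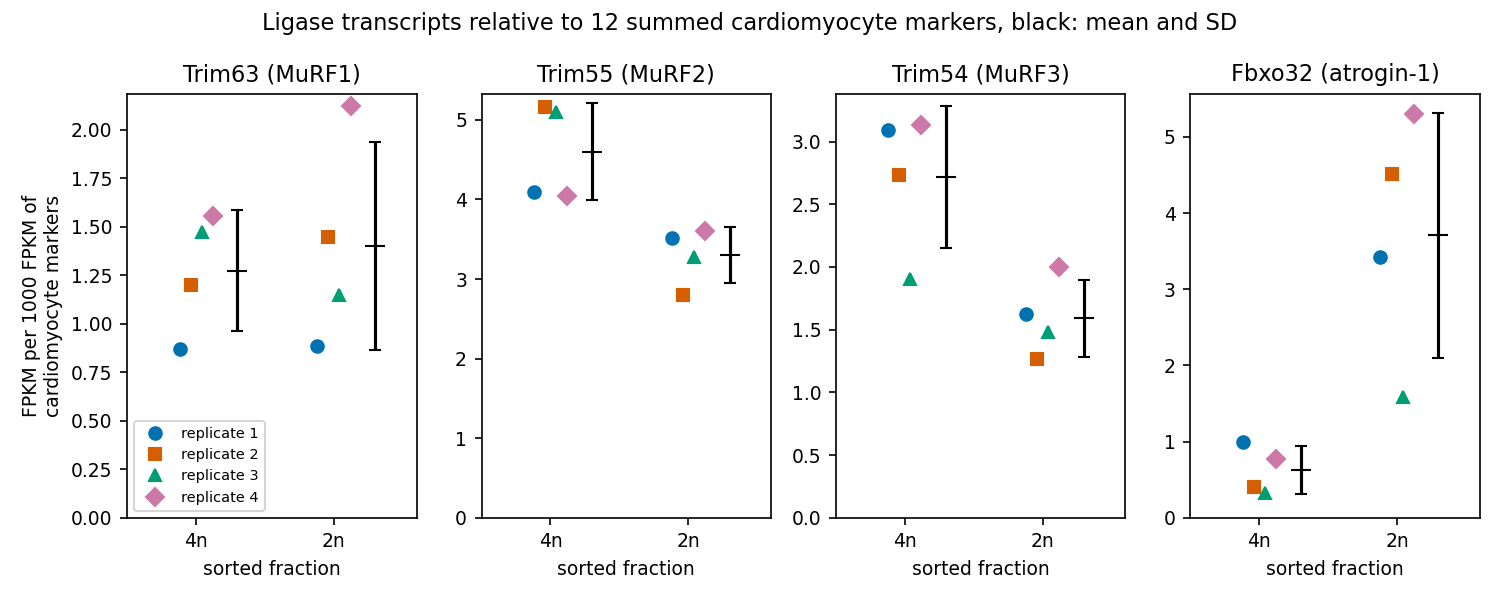
FPKM of each ligase transcript per 1000 FPKM of 12 summed cardiomyocyte markers, by library (coloured points) with the group mean and SD in black, 4n left and 2n right. Trim63 overlaps between the groups, while Fbxo32 has means of 0.626 in 4n and 3.71 in 2n.

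The order of the 4 transcripts differed between the sorted fractions. Levels of different genes were compared in FPKM, which divides by a fixed length per gene, 1896 bases for Trim63, 2653 for Trim55, 1548 for Trim54 and 3179 for Fbxo32. In 4n libraries the order was Trim55 at 30.0 ± 26.3, Trim54 at 15.2 ± 8.22, Trim63 at 8.76 ± 7.87 and Fbxo32 at 3.15 ± 1.45 FPKM (SD, 4 libraries). These spreads overlap between neighbours, but in 3 of 4 libraries the order was the same. The exception was 4n replicate 1, where Trim63 at 2.05 FPKM and Fbxo32 at 2.35 FPKM changed places. In 2n libraries Fbxo32 at 1.81 ± 0.864 and Trim55 at 1.65 ± 0.449 FPKM came first, followed by Trim54 at 0.799 ± 0.267 and Trim63 at 0.687 ± 0.312 FPKM (SD, 4 libraries). Fbxo32 was first in 2n replicates 2 and 4 and second to Trim55 in 2n replicates 1 and 3, so these genes did not differ beyond their spread. Trim54 and Trim63 likewise changed places between 2n libraries. Trim55 was above Trim54 and above Trim63 in 8 of 8 libraries.

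As a share of the summed FPKM of the 4 genes, Fbxo32 made up 11.0%, 4.31%, 3.75% and 8.08% in 4n replicates 1 to 4, against 36.3%, 45.0%, 21.2% and 40.7% in 2n replicates 1 to 4. Every 4n share was below every 2n share. The sum holds the 3 MuRF genes, whose levels were many times higher in 4n, so this restates their folds and is no separate result. The share of Trim63 was 13.8% ± 3.38 in 4n and 13.9% ± 3.10 in 2n (SD, 4 libraries a group). Trim55 made up 50.0% ± 7.26 in 4n and 34.2% ± 7.81 in 2n, and Trim54 29.4% ± 5.65 in 4n and 16.2% ± 3.01 in 2n (SD, 4 libraries a group). The sum itself was 21.4 to 118.4 FPKM in 4n and 3.65 to 7.07 FPKM in 2n. The balance of the classic atrophy pair, Trim63 over Fbxo32, was 0.872, 2.93, 4.47 and 2.03 in 4n replicates 1 to 4, against 0.258, 0.320, 0.724 and 0.401 in 2n replicates 1 to 4. Fbxo32 was thus the more abundant of the pair in all 2n libraries and in 4n replicate 1.

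**Figure D4:**
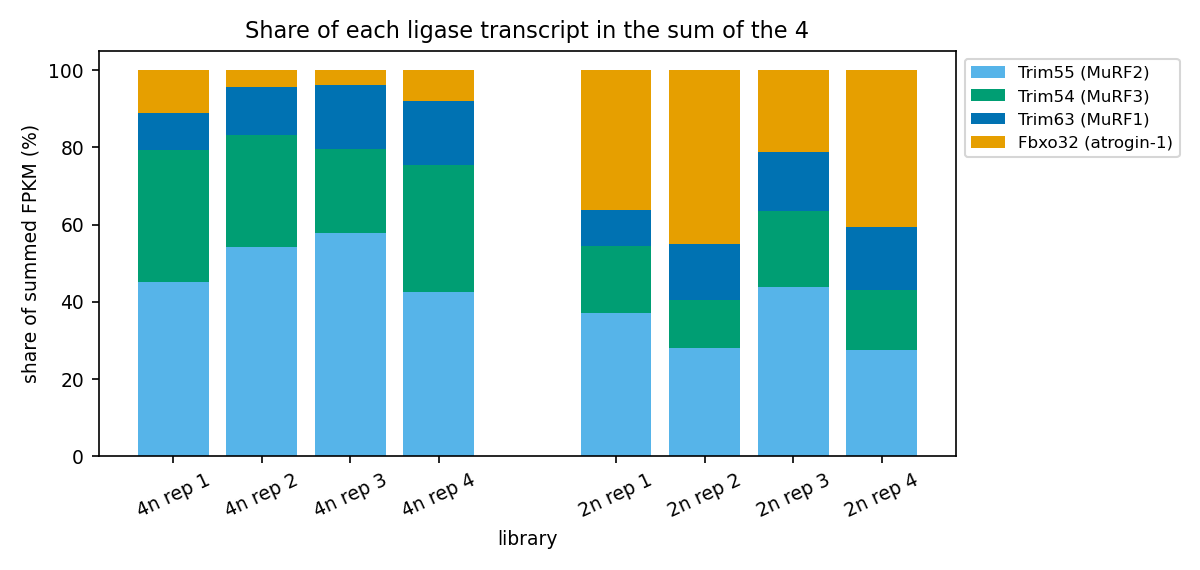
Share of each ligase transcript in the summed FPKM of the 4, by library, 4n left and 2n right (bars stack to 100%). Fbxo32 takes between 3.75% and 11.0% in 4n libraries and between 21.2% and 45.0% in 2n libraries.

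The 3 MuRF genes varied together over the 8 libraries. Pearson's r of log2 CPM was 0.989 between Trim54 and Trim55, 0.976 between Trim55 and Trim63 and 0.964 between Trim54 and Trim63. Between Fbxo32 and the MuRF genes it was 0.731 to 0.805. These values describe 8 libraries that share 4 replicate numbers and fall into the sorted groups, so most of each r is the difference between groups. The genes most like each ligase gene were taken as those whose log2 ratio to it varied least over the 8 libraries, among 9812 genes with a symbol and at least 5 CPM in a group. For Trim55 they were Smyd1, a muscle histone methyltransferase, Trim72, Tnni3 and Tnni1, which encode cardiac and slow troponin I, and Myl2, the ventricular regulatory light chain. Their log2 ratio to Trim55 had an SD of 0.113 to 0.175. For Trim54 they were Csrp3, a Z-disc protein, Cox6a2, a muscle subunit of cytochrome c oxidase, Nppb, Mybpc2 and Actc1, the cardiac actin, at an SD of 0.207 to 0.293. For Trim63 they were Mtus2, Trdn, or triadin of the calcium release complex, Popdc2, Mlip and the ventricular transcription factor Irx4, at 0.223 to 0.282. For Fbxo32 they were Slco2a1, a prostaglandin transporter, Upp1, a uridine phosphorylase, Phlda1, Ankh and Fam210b, at 0.306 to 0.366. A small SD over both groups fixes a like gene's fold change near that of the ligase gene, so these folds are no result.

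Other genes were read from 8 lists with 155 genes, of which 151 were in the table and 143 were tested. Of these, 15 rose in 4n and 0 fell (edgeR quasi-likelihood test, adjusted p under 0.05), against 2.67% of all genes called higher and 0.0077% called lower. The lists were chosen with earlier results of these data known, so the counts from them are a description. The 5 lists of ubiquitin and proteasome genes held 5 of the 15, out of 81 tested. The other 10 were 2 regulators and 8 partners or substrates, from 3 lists with 62 genes tested. An unadjusted p under 0.05 was reached by 29 higher and 2 lower genes of the 143, where 12.6% of all genes were higher and 4.82% lower at that threshold, and DESeq2 called 20 higher and 0 lower, where it called 6.62% of all genes higher. With the replicate block 12 were called higher, where 4.27% of all genes were. Without 4n replicate 4, or without any 1 of the 2n libraries, edgeR called 0 genes in the whole table and so none of these, of which 23 to 28 were then higher at an unadjusted p under 0.05, as were 1304 to 1478 of all genes. The cardiomyocyte markers were also higher in 4n, at sums of 4282 to 31050 CPM in 4n and 507 to 994 CPM in 2n, and their part in these calls was not tested.

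Among other ubiquitin ligases and adaptors of striated muscle, 5 of 18 rose and 0 fell, with a median log2 fold change of 0.52, where that of all genes tested was -0.01. Trim72, whose product MG53 acts in membrane repair, had 90.9 ± 82.7 CPM in 4n and 4.06 ± 1.34 CPM in 2n (SD, 4 libraries a group; a log2 difference of 4.49 ± 0.67 SE at adjusted p = 0.0252 in edgeR). Asb2, the SOCS-box subunit of a cullin ligase for filamins, had 21.6 ± 14.7 CPM in 4n and 3.16 ± 1.00 CPM in 2n (SD, 4 libraries a group; a log2 difference of 2.76 ± 0.49 SE at adjusted p = 0.0258 in edgeR). Klhl41, a kelch adaptor of the thin filament, rose by 3.90 ± 0.70, and Rnf207, a RING protein linked to cardiac repolarization, by 3.99 ± 0.73 on the log2 scale (SE; edgeR adjusted p = 0.0274 and 0.0287). The fifth gene, named after its values were seen, was Fbxo40, a muscle F-box protein, with 9.81 ± 9.78 CPM in 4n and 0.547 ± 0.303 CPM in 2n (SD, 4 libraries a group; edgeR adjusted p = 0.0339). With the replicate block Klhl41, Rnf207 and Fbxo40 no longer passed (adjusted p = 0.0592, 0.0598 and 0.0558 in edgeR), and Asb2 and Trim72 did (0.0203 and 0.0436). The 13 that did not pass had log2 fold changes from -0.41 for Cblb to 2.37 for Fbxl22 (edgeR adjusted p = 0.532 and 0.0563), and 3 of them, Fbxl22, Mul1 and Fbxo21, had an unadjusted p under 0.05. These 4 genes were named after their values were seen. Fbxo25, the closest relative of atrogin-1, had 4.59 CPM in 4n and 4.63 CPM in 2n.

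Relatives of the MuRF proteins that share the microtubule-binding COS box gave no call: 0 of 4 tested passed in edgeR or DESeq2, and 0 of 4 had an unadjusted p under 0.05. Mid1 had 29.4 ± 5.74 CPM in 4n and 34.4 ± 8.16 CPM in 2n, and Mid2 27.6 ± 6.16 CPM in 4n and 24.0 ± 2.41 CPM in 2n (SD, 4 libraries a group). Trim36 and Trim46 had log2 fold changes of -0.08 and -0.26, at edgeR adjusted p of 0.902 and 0.846. Trim9 and Trim67 had too few counts to be tested.

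Core parts of the SCF complex, which atrogin-1 needs, gave no call, with 0 of 9 in edgeR and DESeq2. Nedd8, the modifier that activates cullins, had 65.5 ± 10.1 CPM in 4n and 49.1 ± 6.94 CPM in 2n, and Ube2m, its E2 enzyme, 119.1 ± 14.8 CPM in 4n and 96.9 ± 7.95 CPM in 2n (SD, 4 libraries a group). Their unadjusted p values were 0.0213 and 0.0364, the only ones of the list under 0.05, and edgeR adjusted p was 0.204 and 0.255. Rbx1 and Cand1 had log2 fold changes of 0.29 and -0.15 (adjusted p = 0.472 and 0.526 in edgeR). Skp1 and Cul1, added after their values were seen, had 0.15 and -0.14.

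Genes of ubiquitin, its E1 and its E2 enzymes gave 0 calls of 18 in edgeR and DESeq2, and 0 at an unadjusted p under 0.05. Their log2 fold changes spanned -0.24 to 0.33, with Ube2d1, an E2 partner of many RING ligases, highest at 0.33 ± 0.17 (SE; edgeR adjusted p = 0.356). Ube2l3 and Uba6 had log2 fold changes of 0.30 and -0.21 (adjusted p = 0.354 and 0.398 in edgeR).

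Of 32 subunits of the 26S proteasome 29 had a positive log2 fold change, where 48.2% of all genes did, and 0 were called in edgeR. At an unadjusted p under 0.05 there were 6 higher, where 12.6% of all genes were, and DESeq2 called 1. Their median was 0.17. That sign turned under total count scaling, at -0.09, a setting that moved the median of all genes by -0.23. Psmb6, a catalytic subunit, came nearest, with 25.7, 32.2, 39.1 and 31.8 CPM in 4n replicates 1 to 4, against 21.1, 23.0, 17.3 and 15.1 CPM in 2n replicates 1 to 4. Every 4n library was above every 2n library, as for 7.68% of all genes tested. The log2 fold change of 0.75 ± 0.18 (SE) reached an edgeR adjusted p of 0.0631 without and 0.0491 with the replicate block. Psmb7, Psma7 and Adrm1 had 0.39, 0.30 and 0.28 (adjusted p from 0.215 to 0.252 in edgeR).

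Of the regulators known to act on these ligase genes, 2 of 27 tested rose and 0 fell. Prkaa2, the AMPK catalytic subunit alpha-2, had 32.8 ± 25.5 CPM in 4n and 2.62 ± 0.997 CPM in 2n (SD, 4 libraries a group; a log2 difference of 3.65 ± 0.59 SE at adjusted p = 0.0252 in edgeR). Ppargc1a, the coactivator PGC-1alpha, which restrains atrogin-1 and MuRF1 induction in mouse skeletal muscle, had 9.66 ± 8.40 CPM in 4n and 0.672 ± 0.459 CPM in 2n (a log2 difference of 3.83 ± 0.72 SE at adjusted p = 0.0306 in edgeR; SD, 4 libraries a group). Tnfrsf12a, the receptor of the wasting cytokine TWEAK, had 135.2 ± 18.7 CPM in 4n and 89.8 ± 13.8 CPM in 2n (SD, 4 libraries a group). It passed with the replicate block (adjusted p = 0.0275 in edgeR) and not without it (0.0803). Igf1r had a log2 fold change of -0.46 ± 0.18 (SE), which did not pass (adjusted p = 0.239 in edgeR). The FoxO genes, named for their role and with values known, did not pass. Foxo1 had 9.75 CPM in 4n and 10.1 CPM in 2n, Foxo3 28.4 CPM in 4n and 34.0 CPM in 2n, and Foxo4 31.2 CPM in 4n and 30.7 CPM in 2n (adjusted p = 0.948, 0.803 and 0.968 in edgeR). Nor did Klf15 and the glucocorticoid receptor Nr3c1, at log2 fold changes of -0.07 and 0.05 (adjusted p = 0.936 and 0.897 in edgeR). The myogenic regulator Myog, which drives both ligase genes in denervated mouse muscle, was too low to be tested.

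Other genes that rise in atrophy or are FoxO targets gave 0 calls of 18 in edgeR, where an unadjusted p under 0.05 was reached by 2 higher and 1 lower gene, a share near that of all genes (12.6% higher and 4.82% lower), and 2 calls in DESeq2. Gadd45a had 50.5 ± 20.6 CPM in 4n and 28.0 ± 3.83 CPM in 2n, and Pdk4, which holds back pyruvate oxidation, 5.29 ± 3.07 CPM in 4n and 1.13 ± 0.727 CPM in 2n (SD, 4 libraries a group; edgeR adjusted p = 0.149 and 0.0920). Sesn1 had a log2 fold change of 0.35 and Ctsl, a lysosomal protease, of -0.39 (adjusted p = 0.351 and 0.270 in edgeR).

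Of the reported partners and substrates of these ligases, 8 of 17 tested rose and 0 fell, and 6 passed with the replicate block. Tnni3, encoding the troponin I that MuRF1 marks, rose by 4.45 ± 0.67, Myl2 by 4.60 ± 0.72, Myh6 by 4.39 ± 0.70 and Myh7, a slow myosin heavy chain degraded through MuRF1 and MuRF3 in mice, by 4.28 ± 0.70 on the log2 scale (SE; edgeR adjusted p = 0.0252 for each; with the block 0.0393, 0.0464, 0.0535 and 0.0491). Reads of Myh6 and Myh7, which share long stretches of sequence, may have been exchanged between them by the counting. The remaining 4 that rose, named after their values were seen, were Tnnt2, Mybpc3, Ckm and Des. The 9 that did not pass had log2 fold changes from -0.27 for Vim, or vimentin, to 0.40 for Ppara, a nuclear receptor of fatty acid oxidation (adjusted p = 0.457 and 0.701 in edgeR), both named after their values were seen. Members of this list stand among the 12 cardiomyocyte markers, so it is no separate measure.

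**Figure D5:**
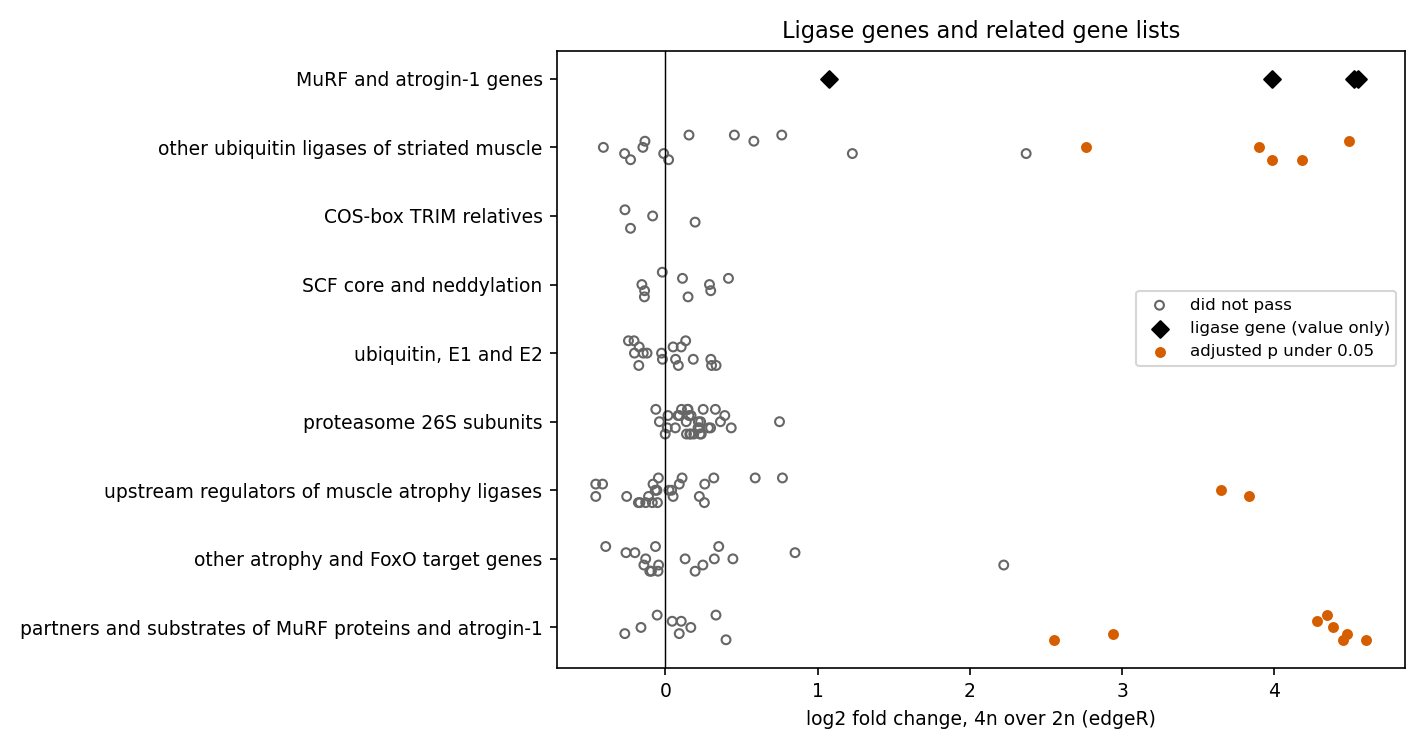
Log2 fold change of 4n over 2n (edgeR) for the 4 ligase genes (diamonds, values only) and for the tested genes of 8 related lists, filled where the adjusted p was under 0.05. The ligase genes lie at 1.07, 3.98, 4.52 and 4.55, and the genes called lie in the lists of muscle ligases (5), regulators (2) and partners (8).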

How the data were processed

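Messenger RNA was sequenced from 4 libraries of 4n and 4 of 2n cells. Reads were aligned with HISAT2 2.0.4 to Rnor 6.0, per the submitters' processing notes; which tool counted them, and whether by strand, is not given in the sources used here, so antisense reads cannot be told apart. The authors deposited whole counts per gene, not normalized, and FPKM values, which equal the count over a gene length and the library total. Groups and replicate numbers came from the titles, and columns were matched by description. The 4 genes and the lists were chosen with earlier results of these data known.

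The main test was that of edgeR 4.0.16 (R 4.3.3) on the counts: filterByExpr (12983 genes kept), TMM scaling, a robust quasi-likelihood fit on the group, two-sided, Benjamini-Hochberg adjustment over all genes tested, threshold 0.05. Log2 CPM used a prior count of 2. DESeq2 1.42.0 and limma 3.58.1, other scalings, no filter, a replicate block and leaving out each library or pair were alternatives. The replicate block was used because the deviations from group means correlated at 0.429, 0.585, 0.268 and 0.648 within pairs 1 to 4, and each library matched its own number best; descriptions of a pair also begin with the same code. Libraries of a group differed beyond sampling noise (chi-square per degree of freedom 58.8 to 421.7 in 4n and 36.6 to 75.7 in 2n). Named genes of a list were the 4 with the smallest unadjusted p unless stated; the values of 1 such gene are not reported here. Where a symbol had several rows, that with the most counts was used. With no sequence used here, promoters were not searched. P-values set the difference between the groups against the spread among these libraries, and those without the block leave the pairing out.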

Additional observations from a re-analysis of the deposited data

Results flagged for a closer look

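In the 2n group Trim63 stood at 2.04 CPM in replicate 4, against 0.854, 0.911 and 1.01 CPM in replicates 1, 2 and 3, a gap large enough to mark that library as lying apart from the others of its group. It rests on 43 counts, with an exact 95% Poisson interval of 31.1 to 57.9. A search of 24 groups of 4 values (4 genes, as CPM, as a ratio to the cardiomyocyte markers and as a share of their sum) gave this 1 case, and chance marks about 1 group in 20. The share of Trim63 in the summed FPKM of the 4 genes was 16.3% in that library, against 9.35% to 15.3% in the other 2n libraries.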

How the results depend on the processing

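Over all genes, 347 were called higher and 1 lower without the block. With the replicate block these counts were 554 and 79, and with DESeq2 860 and 93. With limma-trend on log2(FPKM + 1) they were 186 and 8. The count lower was 12 with total count scaling, 2 without mitochondrial genes and 15 on log2(FPKM + 0.1). Leaving out a library, or a pair with the block, gave from 0 to 1254 higher and from 0 to 399 lower: without 4n replicate 1 the counts were 870 and 90, and with the block they were 1254 and 399 without pair 1 and 558 and 50 without pair 3. No gene was called by edgeR without 4n replicate 4, without any 1 of the 2n libraries, or with the block without pair 2 or pair 4. In these settings 1304 to 1962 genes were higher at an unadjusted p under 0.05, and fewer libraries enter each. Of the 4 ligase genes, 3 were called higher in the main, scaling, filter, block and DESeq2 fits. On log2(FPKM + 1), and with the block without pair 3, 2 were called, and 0 wherever no gene was called. The ligase genes were picked with this comparison known, so nothing is read from these counts.

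Related genes called higher, 15 in all, ranged from 0 to 20 and those lower from 0 to 1 on leaving out a library, and from 0 to 24 and 0 to 1 on leaving out a pair. For muscle ligases the range was 0 to 6 and 0 to 7, for regulators 0 to 4 (lower, 0 to 1) and for partners 0 to 8. With the block, 2 muscle ligases passed in place of 5; the cause was not tested. On leaving out a library or pair, the log2 fold change of Trim54 was 4.05 to 4.82, of Trim55 3.56 to 4.84, of Trim63 2.98 to 4.37 and of Fbxo32 0.47 to 1.40, each lowest without replicate 3. On log2(FPKM + 1), a scale that shrinks low levels, Trim54 had 3.04 and Trim63 2.19. None of the 4 changed sign in any setting run. Ranked by Pearson's r in place of the SD of the log2 ratio, the 5 genes most like Trim63 and Fbxo32 shared 1 gene each with those given. With 14 to 43 counts of Trim63 and 15 to 33 of Trim54 in 2n libraries, counting error limits their folds.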
